A study of Homo sapiens with 8 samples.

Results

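THY1, NGFR, CSPG4, PDGFRA, PDGFRB and MCAM encode surface proteins that are used to mark mesangial cells and pericytes, the contractile cells that hold glomerular and other small vessels. Their 6 rows were found by gene symbol among 60564 genes measured by RNA sequencing, and 5 of them were among the 16884 genes with enough counts to test. The 6 markers were chosen by symbol with their fold changes in this same comparison already known, so their differences between the groups are described here and no p-value is given for them. The ATOH8 knockdown group held 4 libraries from AB8/13 cells transfected with shRNA against ATOH8, which encodes a DNA-binding protein of the helix-loop-helix family. The 4 control libraries came from AB8/13 cells given non-targeting shRNA instead. AB8/13 is a conditionally immortalised human podocyte line. Cells of both groups were grown at 33 °C, then differentiated at 37 °C over 5 days, and shRNA was delivered with a lipid reagent. All libraries come from this 1 line, and the sources used here give neither the sequence nor the number of the shRNAs.

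In the glomerulus, PDGF-B from endothelial cells recruits mesangial cells, which carry its receptor PDGFRB, and pericytes are recruited to other small vessels in the same way. PDGFRA, its close relative, marks interstitial fibroblasts in many organs. THY1 (CD90) is a lipid-anchored adhesion protein of fibroblasts, mesangial cells and, in rodents, T cells, and it binds integrins. CSPG4 (NG2) is a transmembrane proteoglycan of pericytes that binds collagen VI and PDGF-AA. MCAM (CD146) is an adhesion protein of endothelial cells and pericytes that binds laminins containing the alpha-4 chain. NGFR (p75NTR) is a neurotrophin receptor found on neural crest derivatives and on many mesenchymal stromal cells.

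Total counts ran from 23229160 to 25277868 in ATOH8 knockdown libraries and from 21108695 to 27109043 in control libraries. ATOH8 itself had 51, 71, 61 and 53 counts in ATOH8 knockdown libraries, against 175, 160, 122 and 128 in control libraries (log2 fold change -1.26, SE 0.13, edgeR quasi-likelihood test with Benjamini-Hochberg adjustment, adjusted p = 1.78e-09). Podocyte markers ranged from barely detected to abundant. NPHS1 (nephrin), a slit diaphragm protein, had 2 to 6 counts in ATOH8 knockdown libraries and 0 to 2 in control libraries. WT1, a transcription factor of podocytes, was present at 4.95 CPM (counts scaled to library size by TMM) in ATOH8 knockdown libraries and 5.61 CPM in control libraries. KIRREL1, another slit diaphragm gene, averaged 489 CPM in ATOH8 knockdown and 626 CPM in control libraries. Mesangial and pericyte markers other than the 6 ranged as widely. ITGA8 had at most 1 count in any library, HIGD1B had 0, and DES (desmin) averaged 0.361 CPM in ATOH8 knockdown and 0.238 CPM in control libraries. TAGLN, a smooth muscle actin-binding protein, averaged 471 CPM in ATOH8 knockdown and 385 CPM in control libraries. The 6 genes are described here as surface markers, without assigning the cells a type from them.

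The 6 markers differed from each other widely in the size of their difference between the groups. THY1, NGFR and CSPG4 were several-fold higher in ATOH8 knockdown, PDGFRB was 1.50-fold higher, MCAM was nearly level, and PDGFRA was barely detected in either group. Of the 5 tested markers, 4 passed the threshold of 0.05 on the adjusted p, all of them higher. Over all tested genes 51.1% passed it, 25.2% higher and 25.9% lower. The groups did not overlap for the same 4 markers, against 45.6% of tested genes. The median log2 fold change was 1.87 over the 5 tested markers and close to 0 (-0.00072) over all tested genes. Counted from the largest rise among 16884 genes, THY1 stood at rank 26, NGFR at rank 46, CSPG4 at rank 167, PDGFRB at rank 1339 and MCAM at rank 9202. As the markers were chosen with these fold changes known, setting them beside all tested genes describes them and is no test. In bulk RNA, more cells with a transcript and more transcript per cell cannot be told apart.

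**Figure D1:**
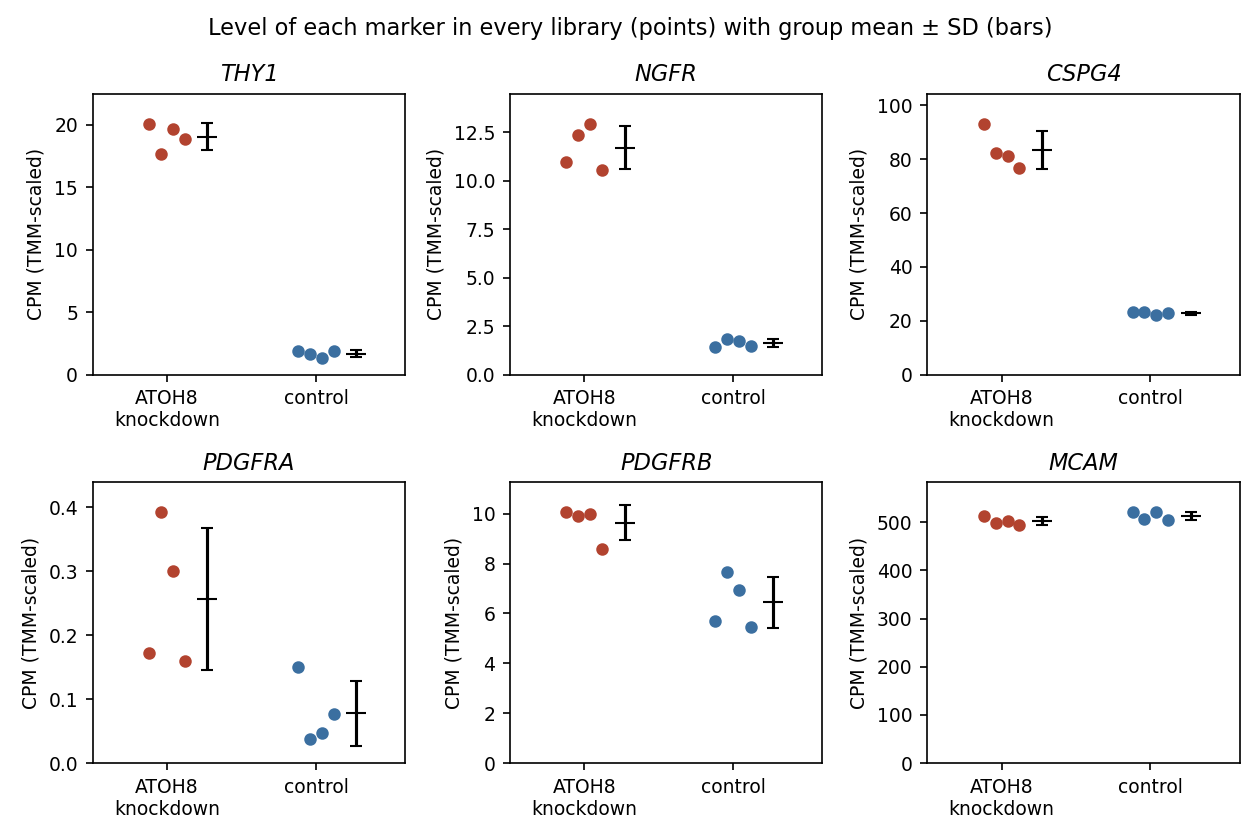
Level of each marker in CPM scaled by TMM, with 1 point for each library and the mean ± SD of the 4 libraries of each group beside the points. THY1, NGFR, CSPG4 and PDGFRB are higher in every ATOH8 knockdown library than in any control library, and MCAM overlaps between the groups near 500 CPM, with means of 502 CPM in knockdown and 513 CPM in control libraries.

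THY1 (ENSG00000154096.13, chromosome 11) showed the largest difference of the 6. It had 467, 449, 456 and 474 counts in ATOH8 knockdown libraries, against 51, 44, 28 and 48 in control libraries. All 4 knockdown libraries lay close together, and the lowest of them was several times the highest control library. The mean level was 19.1 ± 1.07 CPM in ATOH8 knockdown and 1.69 ± 0.264 CPM in control libraries (SD, n = 4 each), an 11.1-fold difference (log2 3.48, SE 0.098). The coefficient of variation was 5.62% in ATOH8 knockdown, where counting error alone gives 4.66%, and 15.6% in control, where it gives 15.4%. Most of the spread of THY1 within each group was therefore of the size that read counting gives. Leaving out any 1 library kept the log2 fold change between 3.39 and 3.54.

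THY1 binds integrins in trans and signals through Src-family kinases, and the listed partners went both ways. Of 16 tested partners and relays, 10 rose, 5 fell and 1 missed the threshold, and the median log2 fold change was 0.23. These counts stand beside 25.2% of all tested genes called higher and 25.9% called lower. ITGA5, the alpha-5 integrin chain, rose (log2 0.37, SE 0.032), and the Src-family kinase FYN rose to 45.2 ± 2.02 CPM in ATOH8 knockdown, against 33.9 ± 0.828 CPM in control libraries (SD, n = 4 each). ITGAM, the alpha chain of the leukocyte integrin Mac-1, rose on few reads, with 29, 29, 17 and 36 counts in ATOH8 knockdown libraries and 5, 4, 4 and 6 in control libraries. The falls were led by LYN, another Src-family kinase (log2 -0.55, SE 0.047), ADGRE5 (CD97), a leukocyte receptor that binds THY1 (log2 -0.45, SE 0.040), and SDC4, the syndecan that acts with integrins at focal adhesions (log2 -0.28, SE 0.032).

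CSPG4 (ENSG00000173546.7, chromosome 15) was the marker with the smallest relative spread in control libraries after MCAM. It had 2167, 2098, 1885 and 1931 counts in ATOH8 knockdown libraries, against 617, 619, 463 and 587 in control libraries. Knockdown replicate 1 was the highest of its group, and the groups were far apart. The mean was 83.4 ± 6.95 CPM in ATOH8 knockdown and 22.8 ± 0.554 CPM in control libraries (SD, n = 4 each), a 3.65-fold difference (log2 1.87, SE 0.052). The coefficient of variation was 8.33% in ATOH8 knockdown, above the 2.23% that counting gives, and 2.43% in control, below the 4.20% that counting gives.

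CSPG4 has near-identical pseudogene copies, so reads could be split between them in counting. The 5 autosomal copies looked up held 180, 187, 187 and 203 counts together in ATOH8 knockdown libraries, and 156, 142, 115 and 137 in control libraries. That is 8.31% to 10.5% of the CSPG4 count in ATOH8 knockdown libraries and 22.9% to 25.3% in control libraries. Of these copies CSPG4P11 (log2 0.51, SE 0.149), CSPG4P12 (log2 0.41, SE 0.148) and CSPG4P10 (log2 0.80, SE 0.324) rose, CSPG4P5 did not pass (log2 0.32, SE 0.274), and CSPG4P13 had too few counts to test. How many reads of the copies belong to CSPG4 was not tested.

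The main ligand of CSPG4 in the matrix is collagen VI, and all 3 chains listed for it rose. COL6A3, the alpha-3 chain, reached 16.6 ± 0.515 CPM in ATOH8 knockdown, against 3.92 ± 0.478 CPM in control libraries (SD, n = 4 each; log2 2.08, SE 0.085, edgeR adjusted p = 6.46e-18). COL6A2 (log2 0.60, SE 0.035) and COL6A1 (log2 0.27, SE 0.035) rose less. Of the 21 tested partners and relays of CSPG4, 14 rose, 2 fell and 5 missed the threshold, at a median log2 fold change of 0.12. Among all tested genes 25.2% rose and 25.9% fell. MMP16, a membrane-bound metalloprotease that binds the proteoglycan, rose (log2 0.89, SE 0.067), as did PLAT, the tissue plasminogen activator (log2 0.58, SE 0.045). The falls were those of FGF2, a growth factor that CSPG4 binds (log2 -0.37, SE 0.034), and of the beta-1 integrin chain ITGB1 (log2 -0.14, SE 0.032).

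MCAM (ENSG00000076706.17, chromosome 11) was by far the most abundant of the 6 per length and the one that differed least. It had 11946, 12696, 11672 and 12434 counts in ATOH8 knockdown libraries, against 13903, 13521, 10950 and 12983 in control libraries. Scaled for depth the groups overlapped, from 495 to 514 CPM in ATOH8 knockdown and from 504 to 521 CPM in control libraries. The means were 502 ± 8.14 CPM in ATOH8 knockdown and 513 ± 8.91 CPM in control libraries (SD, n = 4 each), a log2 fold change of -0.03 (SE 0.029). MCAM and CBL, a ubiquitin ligase that acts on receptor kinases, overlap on opposite strands, and no source used here says whether reads were counted by strand. The log2 fold change of CBL was -0.05 (SE 0.034), and CBL did not pass the test.

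The laminin chain that MCAM binds differed, although MCAM itself was nearly level. LAMA4, the alpha-4 laminin chain, rose to 8.17 ± 0.961 CPM in ATOH8 knockdown, against 1.28 ± 0.320 CPM in control libraries (SD, n = 4 each; log2 2.65, SE 0.142, edgeR adjusted p = 2.63e-15). LAMA5, the alpha-5 chain, rose (log2 1.29, SE 0.071), and so did NTN1, the guidance factor netrin-1 that also binds MCAM (log2 0.45, SE 0.040). Of 13 tested ligands and partners of MCAM, 9 rose, 2 fell and 2 missed the threshold. Their median log2 fold change was 0.14, and 25.2% of all tested genes were called higher and 25.9% lower. The falls were those of RDX, the membrane-actin linker radixin (log2 -0.22, SE 0.031), and WNT5A, a Wnt ligand reported to signal through MCAM (log2 -0.11, SE 0.034). The receptor kinase KDR and the ligands S100A8 and S100A9 had at most 3 counts in any library.

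NGFR (ENSG00000064300.9, chromosome 17) was low in control cells and moderate in knockdown cells. It had 255, 315, 301 and 266 counts in ATOH8 knockdown libraries, against 38, 49, 37 and 38 in control libraries. The groups were well separated, and the libraries of each group lay close together. The mean was 11.7 ± 1.13 CPM in ATOH8 knockdown and 1.62 ± 0.205 CPM in control libraries (SD, n = 4 each), a 7.22-fold difference (log2 2.85, SE 0.115). Its coefficient of variation was 9.61% in ATOH8 knockdown, where counting gives 5.94%, and 12.6% in control, where counting gives 15.8%.

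The p75 receptor works with Trk kinases, which bind mature neurotrophins, and with sortilin-family receptors, which bind the uncleaved proneurotrophins. NTRK2 had at most 1 count in any library, and NTRK3 had 2.38 CPM in ATOH8 knockdown and 2.99 CPM in control libraries (log2 -0.34, SE 0.157, edgeR adjusted p = 0.0751). SORCS2, a sortilin-family receptor known to pair with p75, rose to 3.04 ± 0.427 CPM in ATOH8 knockdown, against 0.563 ± 0.152 CPM in control libraries (SD, n = 4 each; log2 2.43, SE 0.211). SORCS3 (log2 1.24, SE 0.156) of the same family rose too, and SORT1 (sortilin) did not pass (log2 -0.02, adjusted p = 0.646 by edgeR). BEX1, a small adaptor that binds the intracellular part of p75, rose (log2 1.74, SE 0.230), while its relative BEX3 (log2 -0.17, SE 0.032), the kinase RIPK2 (log2 -0.23, SE 0.040) and the sheddase ADAM17 (log2 -0.11, SE 0.035) fell. Of 16 tested receptors and partners 4 rose, 4 fell and 8 missed the threshold, around a median log2 fold change of -0.01. Both counts lie close to the shares over all tested genes, 25.2% called higher and 25.9% called lower.

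Genes of neurotrophin ligands were also measured. NTF3, which encodes neurotrophin-3, rose to 7.22 ± 0.581 CPM in ATOH8 knockdown, against 4.16 ± 0.427 CPM in control libraries (SD, n = 4 each; log2 0.79, SE 0.104). NTF4 (log2 0.92, SE 0.287) rose, at under 1 CPM in each group mean. It no longer passed without ATOH8 knockdown replicate 1 (edgeR adjusted p = 0.0562). BDNF did not pass (log2 0.07, SE 0.046, edgeR adjusted p = 0.19).

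PDGFRB (ENSG00000113721.14, chromosome 5) differed by much less than THY1, NGFR and CSPG4. It had 234, 252, 232 and 216 counts in ATOH8 knockdown libraries, against 152, 204, 146 and 141 in control libraries. Every knockdown library was above every control library once scaled for depth, at 8.60 to 10.1 CPM in ATOH8 knockdown and 5.47 to 7.66 CPM in control libraries. The means were 9.64 ± 0.696 CPM in ATOH8 knockdown and 6.44 ± 1.04 CPM in control libraries (SD, n = 4 each), a 1.50-fold difference (log2 0.58, SE 0.098). The coefficient of variation in control was 16.1%, above the 7.93% that counting gives, with control replicate 2 the highest of its group. Leaving out 1 library moved the log2 fold change between 0.51 and 0.68.

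PDGFRA (ENSG00000134853.12, chromosome 4) was at the limit of detection and was not tested. It had 4, 10, 7 and 4 counts in ATOH8 knockdown libraries, against 4, 1, 1 and 2 in control libraries. The raw counts of the groups touch at 4, and scaled for depth they just missed each other, at 0.159 to 0.393 CPM in ATOH8 knockdown and 0.0375 to 0.150 CPM in control libraries. The summed 25 counts in ATOH8 knockdown and 8 in control give a depth-corrected ratio of 3.22. Its exact 95% interval of 1.41 to 8.27 covers counting error only. Knockdown replicate 2 held 10 of the 25 counts, and control replicate 1 held 4 of the 8. The interval leaves out the spread between libraries and the choice of the marker with its values known, so it is no test of a difference. A read-through gene that spans FIP1L1 and PDGFRA (ENSG00000282278.1) held 4 counts in knockdown replicate 2 and 0 in the other libraries.

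Genes of PDGF ligands moved in both directions. PDGFA, whose product binds PDGFRA, rose to 14.3 ± 0.810 CPM in ATOH8 knockdown, against 8.97 ± 0.319 CPM in control libraries (SD, n = 4 each; log2 0.67, SE 0.071). PDGFB, which encodes the ligand of both receptors, rose slightly (log2 0.19, SE 0.049). PDGFC (log2 -0.13, SE 0.032) and PDGFD (log2 -0.37, SE 0.117), ligands that need proteolytic activation, fell, while PLAT, which activates PDGF-CC, and the convertase FURIN (log2 0.24, SE 0.040) rose. Of the 9 ligand and processing genes tested, 5 rose, 2 fell and 2 missed the threshold. The median log2 fold change was 0.18, and of all tested genes 25.2% rose and 25.9% fell.

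Downstream relays of the PDGF receptors went both ways. Of 21 tested, 8 rose, 4 fell and 9 did not pass, beside 51.1% of all tested genes called in either direction, and the median log2 fold change was 0.02. LRP1, an endocytic receptor that is phosphorylated by PDGFRB, rose to 724 ± 47.4 CPM in ATOH8 knockdown, against 423 ± 30.1 CPM in control libraries (SD, n = 4 each; log2 0.77, SE 0.059). SRC (log2 0.29, SE 0.034) and the phosphatase PTPN1 (log2 0.20, SE 0.033) rose, and PIK3R1, the regulatory subunit of PI3-kinase (log2 -0.20, SE 0.039), and the adaptors NCK1 (log2 -0.16, SE 0.049) and GAB1 (log2 -0.18, SE 0.053) fell.

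**Figure D2:**
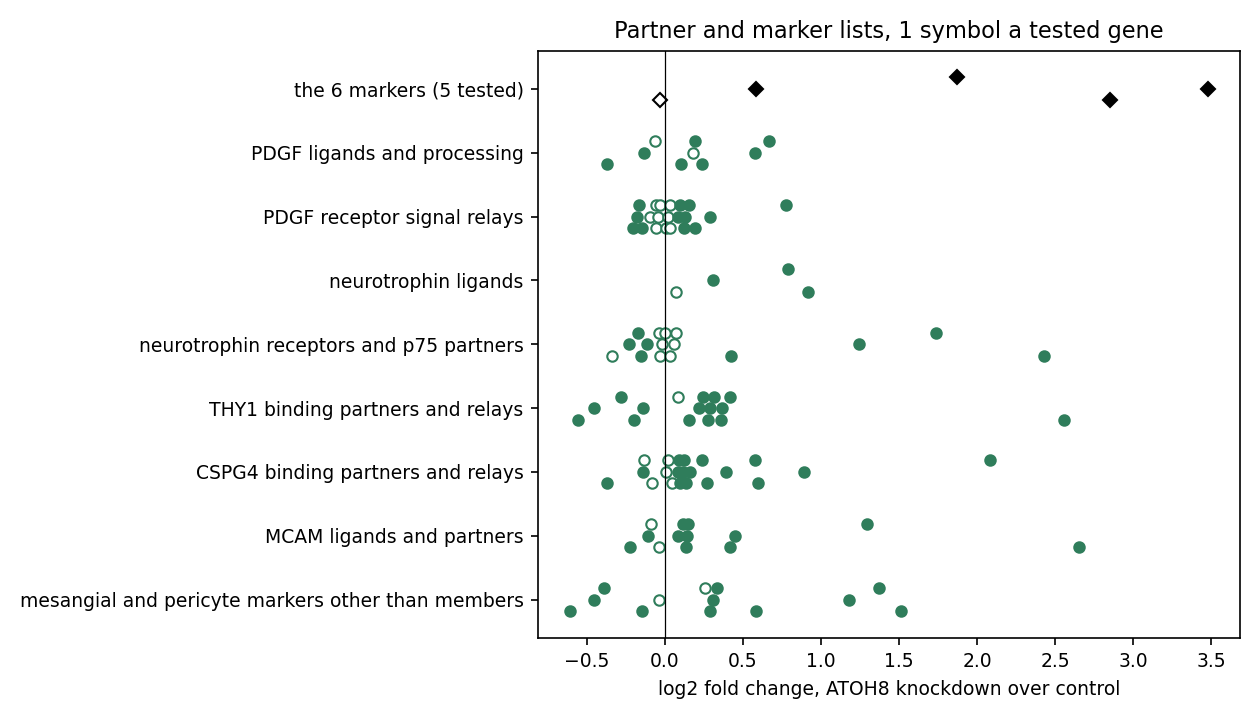
Log2 fold change of ATOH8 knockdown over control, with 1 symbol for each tested gene and a row for each partner list and for the other mesangial and pericyte markers, filled where the gene passed the adjusted threshold of 0.05 in the edgeR test and open where it did not. The 5 tested markers form the top row as diamonds, from -0.03 for MCAM to 3.48 for THY1, and most genes of the other rows lie close to 0, with ITGAM, LAMA4, SORCS2 and COL6A3 the only circles above 2.

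Levels of the 6 markers were compared with each other only per length, as TPM, in which counts are divided by merged exon length and scaled to library size. In ATOH8 knockdown libraries the order by mean was MCAM at 267 TPM, CSPG4 at 39.7 TPM, THY1 at 12.7 TPM, NGFR at 11.1 TPM, PDGFRB at 5.33 TPM and PDGFRA at 0.104 TPM. In control libraries it was MCAM at 267 TPM, CSPG4 at 10.6 TPM, PDGFRB at 3.49 TPM, NGFR at 1.51 TPM, THY1 at 1.10 TPM and PDGFRA at 0.0308 TPM. PDGFRB thus stood above NGFR and THY1 in control libraries and below both in ATOH8 knockdown libraries. Neighbours in the order did not overlap over the 4 libraries of a group, except THY1 and NGFR in ATOH8 knockdown. Among tested genes THY1 lay at the 44.3 percentile of TPM in ATOH8 knockdown and at the 9.11 percentile in control, NGFR at 41.6 in ATOH8 knockdown and 12.2 in control, and CSPG4 at 72.8 in ATOH8 knockdown and 41.0 in control. MCAM lay at the 97.2 percentile in ATOH8 knockdown and the 97.0 percentile in control.

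MCAM dominated the summed expression of the 6 markers. It made up 79.5% ± 0.704 of their summed TPM in ATOH8 knockdown and 94.1% ± 0.271 in control libraries (SD, n = 4 each). CSPG4 made up 11.8% in ATOH8 knockdown and 3.74% in control, and THY1 3.77% in ATOH8 knockdown and 0.388% in control. Without MCAM the other 5 summed to 115 to 134 CPM in ATOH8 knockdown libraries and 31.7 to 34.4 CPM in control libraries.

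**Figure D3:**
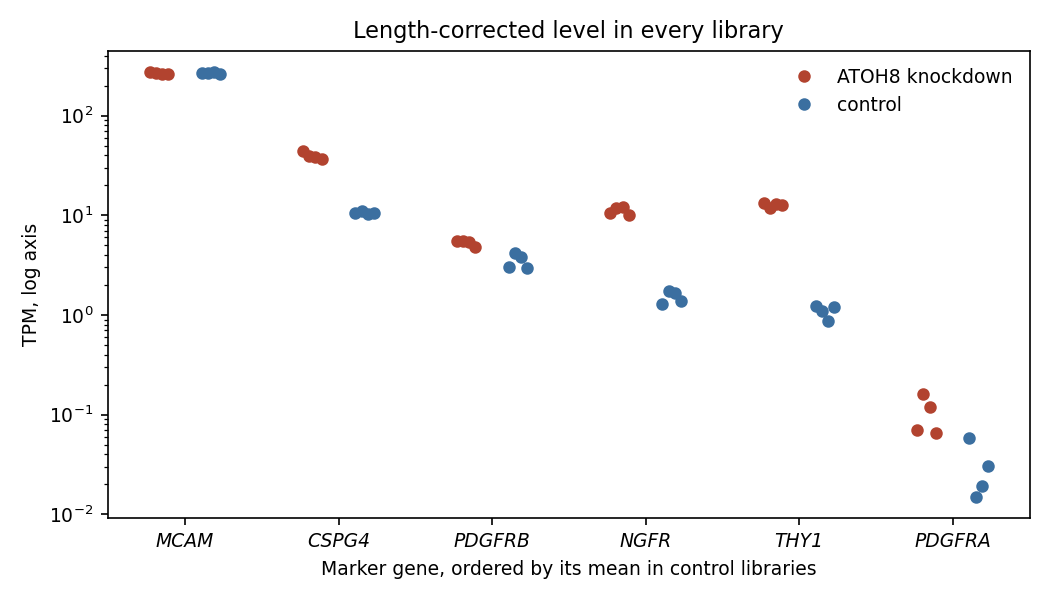
Length-corrected level (TPM, log axis) of the 6 markers in each library, ordered by the mean in control libraries, with ATOH8 knockdown to the left of control for each gene. NGFR and THY1 lie below PDGFRB in control libraries and above it in ATOH8 knockdown libraries, and MCAM stays near 267 TPM in both.

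Promoter windows are shown for CSPG4, PDGFRB and MCAM because these markers span the range from a several-fold difference to none. ATOH8 belongs to a family of factors that bind the E-box, CANNTG, which reads the same as a pattern on both strands. RefSeq windows (GRCh38.p14, 250 bases before to 50 after a start site) were given for 4 of the 6 markers: CSPG4, PDGFRA, PDGFRB and MCAM. Each window is written from 5′ to 3′ on the strand of the gene, with every E-box in capitals. They lie at chr15:75712799-75713098 for CSPG4, chr5:150155796-150156095 for PDGFRB and chr11:119317081-119317380 for MCAM, all on the minus strand.
CSPG4: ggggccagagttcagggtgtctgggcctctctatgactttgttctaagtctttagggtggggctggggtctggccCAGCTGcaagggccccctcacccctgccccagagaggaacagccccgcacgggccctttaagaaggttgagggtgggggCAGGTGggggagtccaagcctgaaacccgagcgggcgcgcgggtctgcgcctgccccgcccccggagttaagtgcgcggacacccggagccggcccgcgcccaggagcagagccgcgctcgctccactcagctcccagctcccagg
PDGFRB: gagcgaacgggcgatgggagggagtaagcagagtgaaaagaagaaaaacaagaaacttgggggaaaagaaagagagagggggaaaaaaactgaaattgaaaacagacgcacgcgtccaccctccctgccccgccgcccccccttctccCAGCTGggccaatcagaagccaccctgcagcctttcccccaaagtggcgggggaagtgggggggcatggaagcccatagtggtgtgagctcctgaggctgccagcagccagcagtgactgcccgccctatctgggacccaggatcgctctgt
MCAM: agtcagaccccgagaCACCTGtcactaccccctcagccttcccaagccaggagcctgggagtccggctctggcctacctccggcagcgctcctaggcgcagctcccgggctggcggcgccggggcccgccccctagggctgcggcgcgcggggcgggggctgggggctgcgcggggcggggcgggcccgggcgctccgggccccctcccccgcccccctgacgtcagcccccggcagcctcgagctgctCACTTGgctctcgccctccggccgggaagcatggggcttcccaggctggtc

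The CSPG4 window held 2 E-boxes, CAGCTG and CAGGTG, the PDGFRB window 1, CAGCTG, and the MCAM window 2, CACCTG and CACTTG. THY1 and NGFR, the markers with the largest differences, had no window, and the number of E-boxes was not tested against the differences between the groups. Of 35116 RefSeq windows of this length, 68.7% held at least 1 E-box and 36.4% at least 2. For PDGFRA, 2 start sites were listed, with 2 E-boxes in one window and 1 in the other. MCAM had the most GC-rich of these windows, with 78.0% G and C and 5 GC boxes (GGGCGG, both strands), against 69.3% and 1 for CSPG4 and 59.3% and 2 for PDGFRB, and 45.0% of all windows held at least 1 GC box. These matches describe letters in the windows and were not tested for binding.

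Genes next to the markers on their chromosomes were also measured. None differed by as much as THY1, NGFR or CSPG4, which are set apart here because their differences were the largest. CAMK2A differed about as much as PDGFRB, the marker beside it. Of the 12 nearest tested neighbours, 6 rose and 6 missed the threshold in the edgeR test, at log2 fold changes from -0.20 to 1.09, beside 25.2% of all tested genes called higher and 51.1% called in either direction. THY1 lies between USP2, which did not pass (log2 0.13, SE 0.190), and NECTIN1, an adhesion gene that rose (log2 0.43, SE 0.056). NGFR lies between EIF4EP2, a pseudogene that shares sequence with its parent gene and did not pass (log2 -0.20, SE 0.127), and NXPH3, which rose (log2 0.85, SE 0.218). CSPG4 lies between SNX33, a sorting nexin (log2 0.45, SE 0.036), and DNM1P35, annotated as an antisense gene (log2 1.09, SE 0.269), which both rose. Beside PDGFRA, CHIC2 rose (log2 0.22, SE 0.071) and SRD5A3 did not pass (log2 -0.15, SE 0.071). Beside PDGFRB, CSF1R, the colony-stimulating factor receptor, did not pass (log2 0.04, SE 0.358) and the kinase gene CAMK2A rose (log2 0.61, SE 0.145). Beside MCAM, neither CCDC153 (log2 0.42, SE 0.350) nor RNF26 (log2 -0.04, SE 0.039) passed. Of the genes that overlap a marker on the opposite strand, THY1-AS1 and NGFR-AS1 had 0 counts in all 8 libraries, and USP2-AS1, which overlaps THY1, had 7 to 14 counts in ATOH8 knockdown and 8 to 18 in control libraries.

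**Figure D4:**
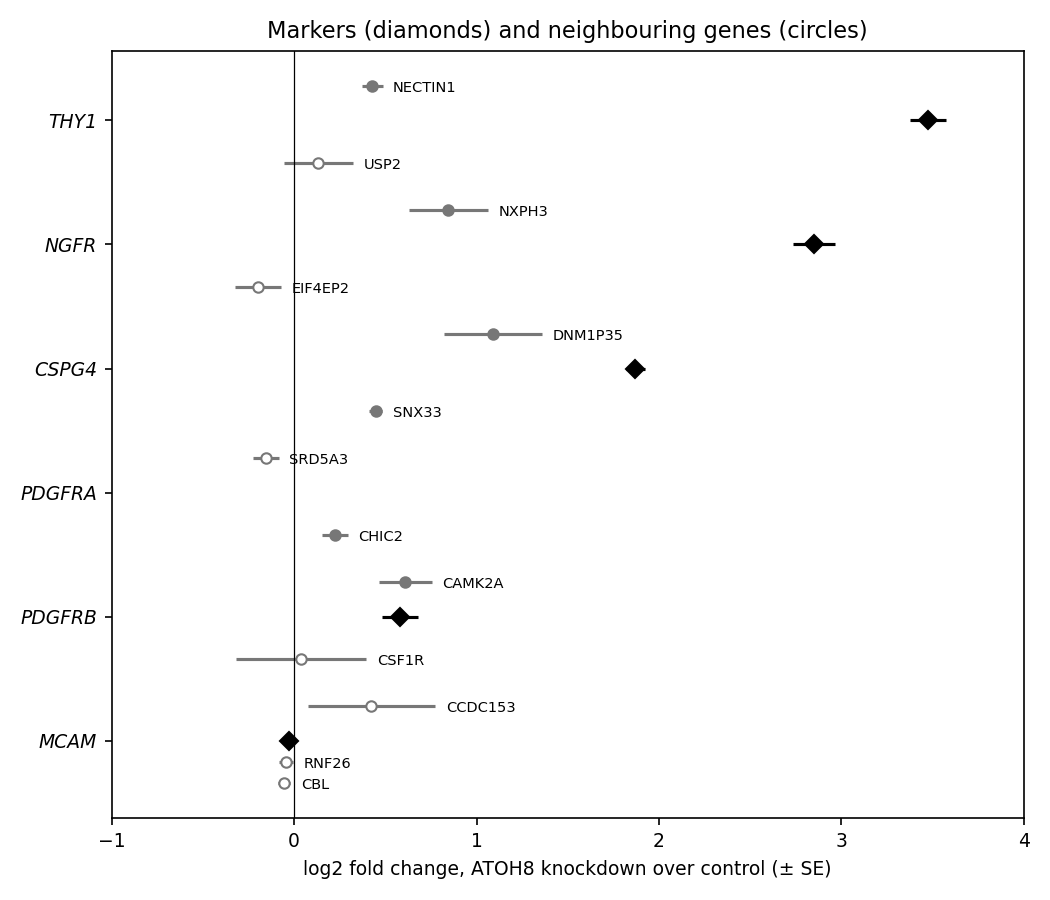
Log2 fold change of ATOH8 knockdown over control with its SE for each tested marker (diamonds) and for the nearest tested genes on either side, plus CBL, which overlaps MCAM (circles, filled where the gene passed the adjusted threshold in the edgeR test). THY1, NGFR and CSPG4 lie to the right of both of their neighbours, PDGFRB lies close to CAMK2A, and MCAM and its neighbours RNF26 and CBL lie near 0.

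The genes whose profiles were most like those of the 3 markers with a log2 difference of at least 1 were found by the root-mean-square difference of log2 levels over the 8 libraries, each centred on its control mean, among 12358 genes. The 12358 genes were those with a symbol and a mean log2 level above a set floor, so genes of low level were not candidates. This measure follows mainly the size of the difference between the groups. For THY1 the closest gene was NGFR, at 0.50, followed by MEG3, an imprinted noncoding RNA, at 0.65. For NGFR they were MEG3, at 0.24, and RGS4, a regulator of G-protein signalling, at 0.25. For CSPG4 they were NECTIN3-AS1, an antisense transcript whose reads may not be separable from those of NECTIN3, at 0.12, and SCARA3, a scavenger receptor, at 0.12. Among these candidates THY1 had no gene as close to it as CSPG4 had.

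Other genes used as mesangial and pericyte markers did not share 1 direction. Of 23 listed, 13 had enough counts to test, of which 7 rose, 4 fell and 2 missed the threshold. The median log2 fold change of these 13 was 0.29, beside 25.2% of all tested genes called higher and 25.9% called lower. ANPEP, the aminopeptidase CD13, rose to 63.8 ± 2.34 CPM in ATOH8 knockdown, against 28.2 ± 2.57 CPM in control libraries (SD, n = 4 each; log2 1.18, SE 0.051). NOTCH3, the mural cell Notch receptor (log2 1.37, SE 0.132), and ACTA2, smooth muscle actin (log2 0.33, SE 0.039), rose. ABCC9 (log2 -0.46, SE 0.048) and KCNJ8 (log2 -0.61, SE 0.126), which encode the 2 subunits of the pericyte potassium channel, fell, as did the pericyte gene RGS5 (log2 -0.39, SE 0.096). The list summed to 1030 to 1069 CPM in ATOH8 knockdown and 770 to 802 CPM in control libraries. TAGLN held a large part of this sum in both groups, and ABCC9, KCNJ8 and RGS5, which fell, held little of it.

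Markers of other cells that carry THY1, NGFR or MCAM were examined beside these differences. For the counts below, the shares over all tested genes were 25.2% called higher and 25.9% called lower. Of 15 neural crest and Schwann cell markers 7 were tested, 2 rose and 5 missed the threshold, summing to 474 to 497 CPM in ATOH8 knockdown and 429 to 461 CPM in control libraries. Most of this sum came from L1CAM, at 307 CPM in ATOH8 knockdown and 272 CPM in control libraries. NCAM1 added 132 CPM in ATOH8 knockdown and 121 CPM in control libraries. SOX10, FOXD3 and S100B, which are defining genes, had at most 3 counts in any library. Of 15 endothelial markers 7 were tested, 5 rose and 2 missed the threshold, summing to 60.5 to 63.1 CPM in ATOH8 knockdown and 39.8 to 43.1 CPM in control libraries, while PECAM1, KDR and EMCN had at most 3 counts in any library. The endothelial rises were led by TIE1, an endothelial receptor (log2 2.68, SE 0.149), and 3 of these markers were called higher where at least 1 CPM in 4 libraries was required. Of 11 leukocyte markers 3 were tested and 2 rose, ITGAM and CD68 (log2 0.42, SE 0.040). The list summed to 103 to 113 CPM in ATOH8 knockdown and 76.7 to 86.7 CPM in control libraries. CD68 made up nearly all of that sum, at 106 CPM in ATOH8 knockdown and 79.3 CPM in control libraries. PTPRC and CD3E had at most 3 counts in any library. Under the same stricter filter 1 leukocyte marker was called higher. Of 20 podocyte markers 14 were tested, of which 7 rose, among them SYNPO (log2 0.53, SE 0.062), 4 fell, among them PLA2R1 (log2 -0.65, SE 0.060), and 3 did not pass, with a sum of 2250 to 2355 CPM in ATOH8 knockdown and 2185 to 2286 CPM in control libraries. The part of these genes in the marker differences was not tested.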

How the data were processed

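Polyadenylated RNA from 8 libraries of AB8/13 cells was sequenced from a directional kit, with RNA integrity numbers above 7.0, per the labels' protocols. The authors deposited whole-number counts per gene with 1 column per library. STAR, featureCounts, FastQC and DESeq2 were the tools and hg19 the build, per the submitters' processing notes. No source used here gives versions, the annotation, the strand setting or the treatment of multi-mapping reads.

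Of 60609 rows, 1 with a missing cell and 44 other Y copies of pseudoautosomal genes with 0 counts were left out, which left 60564 genes. A gene name table gave symbols to 60295 and GENCODE release 29 to 250 more. GENCODE 29 describes GRCh38, so it gave names, neighbours and exon lengths only.

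Genes were filtered with edgeR's filterByExpr, scaled by TMM and tested with the quasi-likelihood F test (edgeR 4.0.16, limma 3.58.1, R 4.3.3), with Benjamini-Hochberg adjustment over all 16884 tested genes and a threshold of 0.05. Fold changes are log2 of ATOH8 knockdown over control, with standard errors (SE) from the F statistic. CPM and TPM were computed here from the deposited counts. The fit was tested on simulated counts first. The 12 library pairs within groups differed by more than sampling noise (chi-square per gene 1.90 to 4.43). The labels call libraries of a group replicates without naming separate cultures, so p-values measure only the scatter among these libraries, which may be technical.

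The 6 members, the gene lists and the tests were chosen with earlier results of these data known. From each list up to 3 rises and 3 falls with the smallest adjusted p were to be named, with the nearest tested neighbours and overlapping genes of each marker and the 2 most similar profiles, and not all of them are printed. COL6A1, PDGFB, BDNF, NTRK3, SORT1, TAGLN and WT1 were named after their values were seen, and genes counted at or near 0 were named as defining markers. Planned protein comparisons were not run, as no protein sequences were used here. Some listed genes are not reported here. Alternatives were DESeq2 size factors, library totals, 2 other filters, DESeq2 1.42.0, the replicate number as a block and the omission of each library. Figures and counts were made in Python 3.11.15 with pandas 2.3.3, scipy 1.17.1 and matplotlib 3.10.9.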

Additional observations from a re-analysis of the deposited data

Results flagged for a closer look

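Of 168 groups of 4 libraries over 84 genes, 10 had 1 library whose gap to the nearest of the others was large for the range of its group, and chance flags about 5% of groups. Among the 6 markers this held for PDGFRB, at 8.60 CPM in ATOH8 knockdown replicate 4, against 9.90 to 10.1 CPM in the other 3. Without that library its log2 fold change was 0.63. In ATOH8 knockdown libraries FURIN was low in replicate 2 (72.8 CPM), LRP1 was high in replicate 1 (794 CPM) and ABCC9 was low in replicate 3 (24.6 CPM). In control libraries replicate 1 was high for PLAT (48.8 CPM), RIPK2 (54.8 CPM), KIRREL1 (653 CPM) and SRD5A3 (13.3 CPM). LUM was high in control replicate 4 (290.3 CPM), and CSF1R was low in control replicate 2 (0.188 CPM).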

How the results depend on the processing

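THY1, NGFR, CSPG4, PDGFRB and MCAM kept the direction of their log2 fold changes under all 14 alternatives, and each moved by less than 1 SD between libraries. MCAM ranged from -0.04 to -0.02 and PDGFRB from 0.51 to 0.68. The PDGFRA log2 ratio, 1.69, ranged between 1.39 and 2.24 with single libraries omitted, and it had no value under the replicate block, DESeq2 or the stricter filter. Genes called with at least a 2-fold change numbered 757, against 1481 with no filter beyond 1 count in total and 476 with at least 1 CPM in 4 libraries. Under that stricter filter fewer genes were tested, and 3 endothelial and 1 leukocyte markers were called higher. Neural crest markers called lower numbered 0 to 1 with single libraries omitted, the 1 without ATOH8 knockdown replicate 3. DESeq2 called 7755 genes. With the replicate number as a block, 8802 genes were called, THY1 had a log2 fold change of 3.48 and no call changed among the other named genes. Same-numbered libraries deviated from their group means with correlations of -0.01 to 0.05, against -0.09 to 0.05 for libraries of different numbers. Libraries numbered 1, 2 and 4 correlated best with their own number, and those numbered 3 did not. The labels do not say that the numbers mark a batch, culture or day, so the block was kept as an alternative. Of 77 other named genes, the call changed in 1 of the alternatives for NTF4, EIF4EP2 and SRD5A3. NTF4 was not called without ATOH8 knockdown replicate 1 (adjusted p = 0.0562, edgeR).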

Other observations

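THY1 is also 1 of 3 surface proteins, with NT5E (CD73) and ENG (CD105), that define cultured mesenchymal stromal cells, and the 3 genes did not move together. NT5E fell to between 256 and 301 CPM in ATOH8 knockdown libraries, against 370 to 390 CPM in control libraries (log2 -0.49, SE 0.043, edgeR adjusted p = 2.30e-08). ENG did not pass the test (log2 0.08, SE 0.055, edgeR adjusted p = 0.212). Of 18 tested fibroblast and stromal markers, 10 rose, 4 fell and 4 missed the threshold, at a median log2 fold change of 0.22, beside 51.1% of all tested genes called in either direction. FBLN1, the matrix protein fibulin-1, had 146, 129, 109 and 130 counts in ATOH8 knockdown libraries and 6, 2, 3 and 7 in control libraries (log2 4.84, SE 0.231). COL1A1, a collagen I chain, rose (log2 1.67, SE 0.049), and LUM, the proteoglycan lumican, fell (log2 -1.25, SE 0.043).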
